A study of Mus musculus with 8 samples.

Results

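Expression of the B cell receptor (BCR) complex and of the enzymes that carry its signal was examined in the stromal vascular fraction (SVF) of gonadal WAT for 9 genes, chosen by name from the 54532 genes of the deposited count table. Cd79a, Cd79b, Cd22, Blnk and Blk were taken as the 5 B cell-restricted genes. Btk, Syk, Lyn and Plcg2 were taken as the 4 genes shared with myeloid cells. All 9 passed edgeR's filter for expression, as did 15963 genes in total.

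The BCR is a membrane immunoglobulin that cannot signal alone and is held in the membrane together with the Cd79a-Cd79b pair, whose tails carry the tyrosine motifs known as ITAMs. When antigen gathers receptors, Src family kinases such as Lyn and Blk phosphorylate the ITAMs, Syk docks on them, and the adaptor Blnk brings Btk and Plcg2 together so that calcium is released, while Cd22 draws in a phosphatase that damps the response. Macrophages, which are abundant in obese fat, use Syk, Lyn, Btk and Plcg2 behind the ITAM adaptors Tyrobp and Fcer1g, and BAFF is a TNF family cytokine that mature B2 cells need to survive.

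All 8 libraries came from male C57BL/6J mice that went through a diet intervention, 6 weeks old by the labels when an HFD with 60% of calories from fat was begun (the methods give other ages), and 1 library was made per mouse. After 12 weeks they were moved to normal chow with 16% of calories from fat and injected with 2 mg/kg of antibody every 2 weeks for 6 weeks, until week 18. The 4 control Ab-treated mice (mice 1, 2, 6 and 9) received an isotype control IgG1k, and the 4 anti-BAFF Ab-treated mice (mice 5, 7, 8 and 10) received the BAFF-neutralizing clone Sandy-2. The SVF is the mixed cell pellet of a collagenase-digested fat pad after red cells are lysed, so no cell type was sorted and fewer cells of a type cannot be told apart from less RNA per cell. No mouse without antibody and no lean mouse was compared here.

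The libraries held 13562340 to 18548024 counts, and 3 counts in the smallest corresponded to 0.219 CPM (the count relative to the TMM-scaled library size), a level that covers counting error only. Marker genes showed a mixed stroma with many macrophages. Summed over 10 macrophage markers, the level was 8874 to 12993 CPM with control Ab and 9463 to 11228 CPM with anti-BAFF Ab. Of the 10, 0 passed an unadjusted p of 0.05 in edgeR, against 1.24% of all genes lower and 0.664% higher. That count lies near these shares and is no result about the macrophage markers. The 5 fat progenitor markers summed to 3273 to 6529 CPM and 4406 to 6362 CPM, and the 4 endothelial markers to 529 to 960 CPM and 605 to 944 CPM. The 11 B cell markers were low by comparison, at 145 to 179 CPM with control Ab and 128 to 153 CPM with anti-BAFF Ab. Most of these sums was Cd37, which other leukocytes also make, with means of 103 and 102 CPM. The sums therefore say little about the other B cell markers, whose changes are given below. Some libraries stood apart. Control mouse 1 had the highest sum of macrophage markers, and that rank rested on Lyz2. This gene had 7686 CPM in mouse 1, against 4074 to 5666 CPM in the other mice. Anti-BAFF mouse 5 had neutrophil markers at 168 CPM against 28.6 to 41.1 CPM in the other 7 mice. Control mouse 2 and anti-BAFF mouse 7 carried epididymis genes at 1903 and 1871 CPM, while the sums in the other mice lay between 19.2 and 690 CPM.

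Promoters are shown for the B cell-restricted genes that RefSeq's promoter table listed, because the results below differ between these genes. Of the 9 genes, 6 were listed, and Cd79b, Blk and Lyn were not. The sequences are the 250 bases before the annotated start, in mouse GRCm38.p6, given 5′ to 3′ on the gene's own strand, with capitals marking motif matches. The deposited gene models begin upstream of these starts, so the windows overlap them in part or in full. Cd79a lies at chr7:24897247-24897496 on the plus strand, Cd22 at chr7:30879029-30879278 on the minus strand and Blnk at chr19:40994222-40994471 on the minus strand.
Cd79a: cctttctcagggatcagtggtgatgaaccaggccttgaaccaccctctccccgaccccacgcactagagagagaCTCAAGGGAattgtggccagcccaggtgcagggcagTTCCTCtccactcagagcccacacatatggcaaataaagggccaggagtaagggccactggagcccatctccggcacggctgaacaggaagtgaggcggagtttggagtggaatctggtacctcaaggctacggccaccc
Cd22: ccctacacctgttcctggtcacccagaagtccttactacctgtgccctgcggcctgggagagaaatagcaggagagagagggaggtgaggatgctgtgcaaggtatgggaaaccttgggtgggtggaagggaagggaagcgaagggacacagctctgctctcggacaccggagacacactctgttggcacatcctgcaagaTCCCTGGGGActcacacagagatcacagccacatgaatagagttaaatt
Blnk: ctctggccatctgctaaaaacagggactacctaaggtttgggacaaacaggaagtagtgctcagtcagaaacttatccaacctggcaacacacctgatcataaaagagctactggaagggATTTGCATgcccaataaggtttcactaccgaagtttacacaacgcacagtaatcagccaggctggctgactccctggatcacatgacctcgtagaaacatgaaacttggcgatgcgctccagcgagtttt

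The capitals in Cd79a mark TCCCNNGAG, a spelling of the site of the B lineage factor Ebf1, 176 bases before the start and the Ets or PU.1 core GAGGAA 140 bases before it, both read on the opposite strand. TCCCNNGAG was searched because this promoter is known to hold it, so its presence here is no result. In Cd22 they mark overlapping matches to TCCCNNGGG, another Ebf spelling, at 49 and 48 bases before the start. In Blnk they mark the octamer ATGCAAAT, the site bound by Oct factors together with Pou2af1, 130 bases before the start on the opposite strand. Among 32851 promoter windows of this length, searched on both strands, ATGCAAAT was found in 1.60%, TCCCNNGGG in 5.60%, TCCCNNGAG in 5.98% and GAGGAA in 23.3%. The second annotated start of Syk had a GAGGAA 9 bases before it, while the first start of Syk, Btk and Plcg2 held none of the 4 spellings. A match describes letters and not a bound site.

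Per unit of length, Syk, Lyn and Plcg2 had the highest mean levels of the 9 genes. FPKM values (CPM divided by gene length in kilobases) in the control Ab-treated mice were 39.7 ± 8.35 for Syk (SD, n = 4) and 32.4 ± 5.36 for Lyn (SD, n = 4), at percentiles 92.4 and 90.6 of the genes tested. Plcg2 followed at 17.8 ± 4.77 FPKM (SD, n = 4), Blnk at 15.8 ± 3.73 FPKM (SD, n = 4), Btk at 10.2 ± 3.56 FPKM (SD, n = 4) and Cd79a at 7.25 ± 0.999 FPKM (SD, n = 4). Cd79b had 4.17 ± 0.857 FPKM (SD, n = 4), Cd22 had 3.47 ± 0.292 FPKM (SD, n = 4) and Blk had 1.55 ± 0.596 FPKM (SD, n = 4). In that order the values of neighbours overlapped between mice except at the steps from Lyn to Plcg2, from Cd79a to Cd79b and from Cd22 to Blk. Blnk, though listed as B cell-restricted, stood among the shared genes by level. The B cell markers spanned this level in the same mice, from Pax5 (0.798 FPKM) and Ms4a1 (1.13 FPKM) below it to Ly6d (15.3 FPKM) beside it and Cd37 (29.2 FPKM) above it. Blnk is known to be made by macrophages as well as by B cells.

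**Figure D1:**
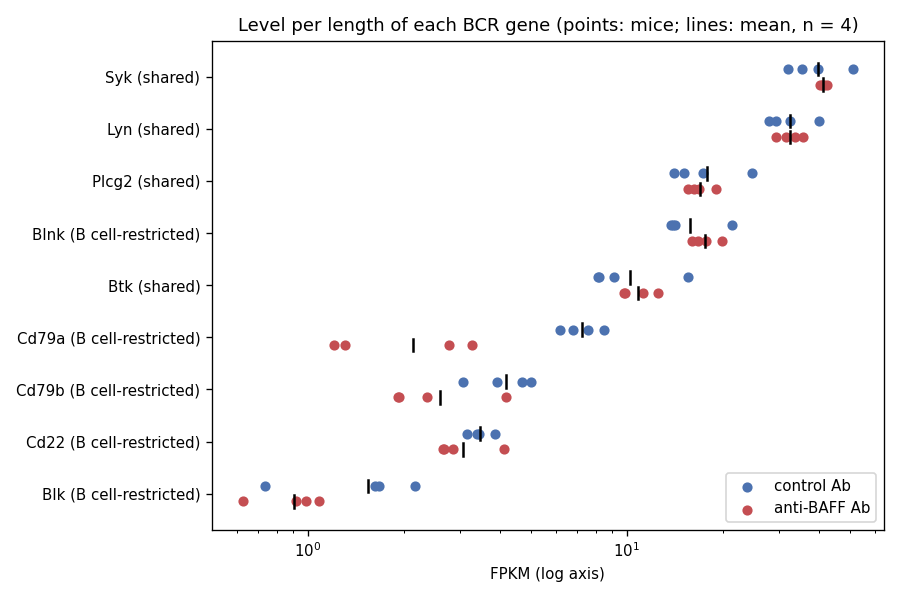
FPKM of the 9 BCR genes on a log axis, ordered by the control mean, with a point for each mouse (blue control Ab, red anti-BAFF Ab) and a line at each mean of 4 mice. Syk and Lyn lie highest, Blnk lies between Plcg2 and Btk, and Cd79a is the gene whose red points all lie left of its blue points.

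Cd79a, the Ig-alpha chain (chr7:24897381-24902197), carries one of the ITAM tails of the receptor. Its level was 8.99, 12.4, 9.88 and 11.0 CPM in control mice 1, 2, 6 and 9. In anti-BAFF mice 5, 7, 8 and 10 it was 4.04, 1.91, 4.76 and 1.76 CPM. All 4 anti-BAFF Ab-treated mice lay below all 4 control Ab-treated mice, and mice 7 and 10, with 34 and 32 counts, were the lowest. The mean went from 10.6 ± 1.46 to 3.12 ± 1.51 CPM (SD, n = 4 each), a log2 fold change of -1.77 (standard error, SE, 0.32, 95% interval -2.49 to -1.04), or 0.294 of the control level. The quasi-likelihood (QL) test of edgeR gave an unadjusted p of 0.000375 and an adjusted p of 0.231, so the difference did not pass the threshold of 0.05 over all genes. The choice of test decided this call. DESeq2's Wald test gave an adjusted p of 3.09e-05 and edgeR's likelihood ratio test 0.00032, while the adjusted p ranged from 3.09e-05 to 1 over the alternatives run, with the log2 fold change between -2.06 and -1.46.

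Cd79b, the Ig-beta chain (chr11:106311341-106314762) that pairs with Cd79a, was lower by less. Control mice 1, 2, 6 and 9 had 6.70, 7.15, 5.63 and 4.40 CPM. Anti-BAFF mice 5, 7, 8 and 10 had 5.99, 2.76, 3.39 and 2.76 CPM. Treated mice 7, 8 and 10 lay below every control mouse, and mouse 5 lay among the controls. The log2 fold change was -0.68 (SE 0.29, 95% interval -1.33 to -0.04), and p was 0.0404 unadjusted and 1.00 adjusted in edgeR. Per length, Cd79a exceeded Cd79b by a ratio of 1.80 ± 0.479 in the controls (SD, n = 4), from 1.32 to 2.46. With anti-BAFF Ab the ratio was 0.838 ± 0.361 (SD, n = 4), at 0.662, 0.681 and 0.629 in mice 5, 7 and 10 and 1.38 in mouse 8. Only mouse 8 of the treated mice reached the range of the controls, and the ratio was not tested.

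Blk, a Src family kinase of B cells (chr14:63372836-63417037), had 1.98, 4.37, 5.85 and 4.52 CPM in control mice 1, 2, 6 and 9. It had 2.49, 1.69, 2.68 and 2.92 CPM in anti-BAFF mice 5, 7, 8 and 10. Control mice 2, 6 and 9 were above every treated mouse, but control mouse 1 was below 3 of them. The log2 fold change was -0.77 (SE 0.33, 95% interval -1.51 to -0.03), and p was 0.0424 unadjusted and 1.00 adjusted in edgeR. These values rest on 30 to 80 counts per mouse.

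Cd22, an inhibitory sialic acid-binding receptor of B cells (chr7:30865402-30880342), had 17.1, 19.5, 17.3 and 16.0 CPM in control mice 1, 2, 6 and 9. Its values in anti-BAFF mice 5, 7, 8 and 10 were 20.7, 14.4, 13.4 and 13.5 CPM. Mice 7, 8 and 10 were below every control mouse, whereas mouse 5 was the highest of all 8. The log2 fold change was -0.18 (SE 0.16, 95% interval -0.53 to 0.18) and the QL test gave an unadjusted p of 0.289. That interval does not reach the interval of Cd79a, although Cd22 is classed with it. In the deposited annotation 1 other gene model overlaps Cd22.

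Blnk, the adaptor that links Syk to Btk and Plcg2 (chr19:40928927-40994535), had 128, 82.5, 84.7 and 83.4 CPM in control mice 1, 2, 6 and 9. Anti-BAFF mice 5, 7, 8 and 10 had 95.9, 119, 106 and 100.1 CPM. All treated mice were above control mice 2, 6 and 9, and control mouse 1 was above them all. The log2 fold change was 0.15 (SE 0.15, 95% interval -0.19 to 0.50), and the QL test gave an unadjusted p of 0.344. Relative to Cd79a, the FPKM of Blnk was between 1.62 and 3.47 in the controls and between 5.40 and 15.1 with anti-BAFF Ab. Of the summed FPKM of the 5 B cell-restricted genes, Blnk made up 58.8, 42.1, 46.4 and 47.3% in control mice 1, 2, 6 and 9 and 57.2, 74.7, 65.5 and 70.8% in anti-BAFF mice 5, 7, 8 and 10. The share of Cd79a was 17.0, 25.9, 22.3 and 25.7% in the same control mice and 9.90, 4.94, 12.1 and 5.13% in the same treated mice. The shares of Cd79a did not overlap between the groups, and those of Blnk overlapped through mice 1 and 5.

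**Figure D2:**
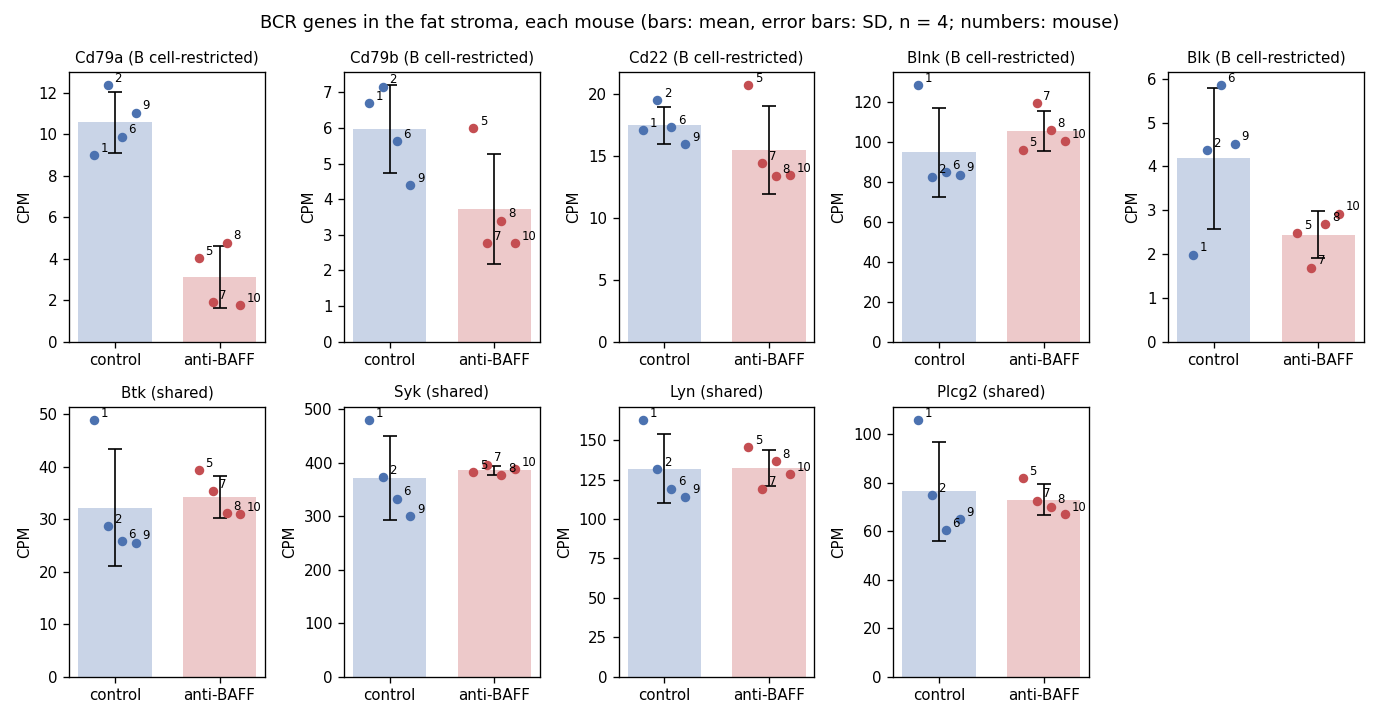
CPM of each of the 9 BCR genes in every mouse, with a point per mouse labelled by its number, bars at the mean of 4 mice and error bars of 1 SD, for control Ab (blue) and anti-BAFF Ab (red). Cd79a separates the groups, Blk and Cd79b overlap through mice 1 and 5, and mouse 1 is the highest control for Blnk and all 4 shared genes.

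With the threshold of 0.05 on the adjusted p, the QL test of edgeR called 0 of the 5 B cell-restricted genes, against 0.0564% of all genes called lower. At an unadjusted p of 0.05, 3 of the 5 were lower (Cd79a, Cd79b and Blk), against 1.24% of all genes, and 0 were higher, against 0.664%. One of the 5, Cd79a, had groups that did not overlap with the treated mice lower, against 0.952% of all genes, and 0 did so with the treated mice higher, against 0.526%. DESeq2's Wald test called 1 of the 5 lower, again Cd79a, against 0.253% of the 26057 genes to which it gave an adjusted p. The median log2 fold change of the 5 was -0.68, with 4 of 5 below 0, while the median over all genes tested was 0.0041. The interval of Cd22 left out the values of Cd79a and Ms4a1 (-1.24) but still held a smaller decrease, and the interval of Blnk, a gene named as B cell-restricted, left out the same values.

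For all 4 shared genes the groups overlapped. Over all genes, the treated mice lay all below the controls in 0.952% and all above in 0.526%, so this overlap is no result about these genes. Syk, the tyrosine kinase that docks on phosphorylated ITAMs (chr13:52583173-52648792), had 479.7, 372.9, 332.5 and 299.9 CPM in control mice 1, 2, 6 and 9. Anti-BAFF mice 5, 7, 8 and 10 had 382, 396, 376 and 388 CPM. The treated mice were tightly grouped inside the wide range of the controls, with SDs of 8.46 and 78.2 CPM. The log2 fold change was 0.05 (SE 0.14), and its 95% interval of -0.25 to 0.36 leaves out a change of the size of that of Cd79a. It was -0.03 without control mouse 9. Relative to Cd79a, the FPKM of Syk was 5.62 ± 1.83 with control Ab (SD, n = 4) and 23.4 ± 11.4 with anti-BAFF Ab (SD, n = 4), and its ratio to the macrophage receptor Csf1r was 0.176 ± 0.0204 (SD, n = 4) and 0.179 ± 0.0167 (SD, n = 4).

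Btk, the Tec family kinase that activates Plcg2 (chrX:134542336-134583570), had 48.9, 28.7, 25.7 and 25.5 CPM in control mice 1, 2, 6 and 9. It had 39.3, 35.4, 31.2 and 30.9 CPM in anti-BAFF mice 5, 7, 8 and 10. Every treated mouse was above control mice 2, 6 and 9, and mouse 1 was the highest of all. The log2 fold change was 0.09 (SE 0.21, 95% interval -0.39 to 0.56), and the QL test gave an unadjusted p of 0.692. It was 0.34 without control mouse 1 and -0.01 without control mouse 9.

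Lyn, the Src family kinase that both starts and restrains BCR signaling (chr4:3678115-3813122), ranged from 114 to 163 CPM in the controls and from 119 to 145 CPM in the treated mice. Its log2 fold change was 0.0047 (SE 0.12, 95% interval -0.27 to 0.28), and the sign turned with other scalings of the libraries. Plcg2, the phospholipase that releases calcium from stores (chr8:117498291-117635142), ranged from 60.3 to 106 CPM and from 67.1 to 81.9 CPM. Its log2 fold change was -0.07 (SE 0.17, 95% interval -0.45 to 0.31), and it was 0.11 without control mouse 1. In the deposited annotation 4 other gene models overlap Lyn, 1 overlaps Btk and 1 overlaps Plcg2, and the sources used here do not say whether strand was counted. Unadjusted p-values in the QL test were 0.700 for Syk, 0.970 for Lyn and 0.688 for Plcg2.

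Of the 4 shared genes, 0 were called by edgeR (0.0564% of all genes lower) or by DESeq2 (0.253% lower), and 0 had an unadjusted p under 0.05 (1.24% lower and 0.664% higher). A count of 0 of 4 lies near these shares and is no result about these genes. The median log2 fold change was 0.03, with 1 of 4 below 0. Leaving out single mice moved this median between -0.05 and 0.15. All 4 were highest in control mouse 1, as were 5 of the 10 macrophage markers. The macrophage gene Adgre1 (F4/80) had 804 CPM in mouse 1, against 531 to 622 CPM in the other controls and 609 to 640 CPM in the treated mice. How far the macrophage content of mouse 1 contributed to the spread of these genes was not tested. The B cell-restricted genes made up 21.7, 24.9, 25.9 and 26.1% of the summed FPKM of all 9 genes in control mice 1, 2, 6 and 9 and 20.6, 21.1, 21.2 and 19.3% in anti-BAFF mice 5, 7, 8 and 10.

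**Figure D3:**
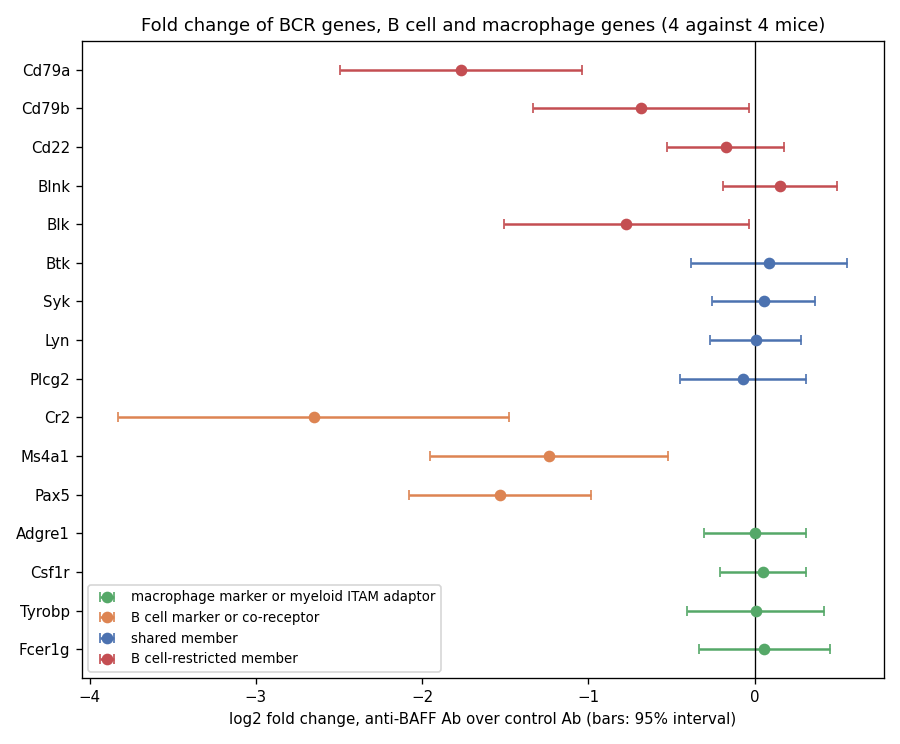
Log2 fold change of anti-BAFF Ab over control Ab with its 95% interval, from edgeR on 4 against 4 mice, for the B cell-restricted (red) and shared (blue) BCR genes, B cell markers and the co-receptor gene Cr2 (orange) and macrophage genes (green). Cd79a lies at -1.77 beside the B cell genes drawn (Cr2, Ms4a1 and Pax5), whereas Cd22, Blnk and the shared genes have intervals that include 0. The B cell markers Spib, Cd37 and Pou2f2, which are not drawn, also have intervals that include 0.

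Membrane immunoglobulin is the part of the receptor that binds antigen, and its constant region genes were looked at beside the 9, after their values had been seen. Ighm had a log2 fold change of -2.36 (SE 0.30, adjusted p = 0.0448 in edgeR), and IgM is secreted as well as held in the membrane. Ighd (chr12:113406604-113416324), the heavy chain of IgD, had 4.71, 7.74, 7.61 and 5.70 CPM in control mice 1, 2, 6 and 9. In anti-BAFF mice 5, 7, 8 and 10 it had 3.84, 0.788, 1.37 and 1.49 CPM. The groups did not overlap, and mouse 5 was again the highest treated mouse. Its log2 fold change was -1.79 (SE 0.44, adjusted p = 0.858 in edgeR), while DESeq2's Wald test called it lower (adjusted p = 0.0138). Ighm exceeded Cd79a by an FPKM ratio of 63.0 to 138 in the controls and 62.8 to 87.4 with anti-BAFF Ab, and these ranges overlapped.

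Other genes of the pathway were followed as 91 genes in 7 lists by role, of which 90 were tested. At an adjusted p of 0.05 edgeR called 0 of them, against 0.0564% of all genes called lower. At an unadjusted p of 0.05, 4 were lower (4.44%, against 1.24% of all genes) and 2 were higher (0.664% of all genes). In 5 the treated mice were all below the controls (0.952% of all genes) and in 0 all above (0.526%). DESeq2's Wald test called 3 lower (0.253% of the genes it tested). The median log2 fold change over the 90 was -0.00023.

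Of the 4 genes that were lower at an unadjusted p of 0.05, 2 were in the co-receptor list and 2 in the inhibitory receptor list. The 4 co-receptor genes had a median log2 fold change of -0.75. Cr2 (CD21), a complement receptor that lowers the threshold of the BCR, had a mean of 1.20 ± 0.267 and 0.192 ± 0.189 CPM (SD, n = 4 each), with 3 of the treated mice under the level of 3 counts, and a log2 fold change of -2.65 (SE 0.52). The tetraspanin Cd81, which other stromal cells make too, had 273 ± 22.3 and 257 ± 20.9 CPM (SD, n = 4 each).

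The 10 genes listed as inhibitory receptors had a median log2 fold change of -0.25. They were listed by name, and whether each restrains the BCR was not examined here. Fcrla, an Fc receptor-like protein of B cells, went from 5.34 ± 0.473 to 2.55 ± 0.888 CPM (SD, n = 4 each), with a log2 fold change of -1.07 (SE 0.24). Siglecg, a relative of Cd22, went from 4.73 ± 0.560 to 2.88 ± 0.486 CPM (SD, n = 4 each), with a log2 fold change of -0.71 (SE 0.19). Neither passed the adjusted threshold of edgeR, and DESeq2's Wald test called Cr2 and Fcrla but not Siglecg. In 2 of the 10 the treated mice were all below the controls (0.952% of all genes), and in 0 all above (0.526%). Overlap was seen for Fcrl1 and Fcrl5, at log2 fold changes of -0.47 and -0.49. It was also seen for Fcgr2b and Pirb, which macrophages make too. Fcgr2b had 143 ± 35.3 and 139 ± 42.9 CPM (SD, n = 4 each), and Pirb had 178 ± 71.2 and 191 ± 22.4 CPM (SD, n = 4 each).

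Inside the cell the lists lay near 0. The 10 inhibitory enzymes had a median log2 fold change of -0.01, the 17 adaptors and PI3K genes 0.03 and the 24 downstream genes -0.0063. Bank1, a B cell scaffold protein, had the lowest value among the adaptors at -0.34 (SE 0.19, unadjusted p = 0.0998). Bcl2, a survival factor, had treated mice all below the controls at a log2 fold change of -0.16 (SE 0.08).

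Relatives of the 9 genes that other leukocytes use gave a comparison by family. Of 14 kinase, phospholipase and adaptor paralogues, 13 were tested, with a median log2 fold change of -0.01 and the lowest value, -0.35, for Zap70, the T cell counterpart of Syk. Plcg1, the counterpart of Plcg2, had 61.0 ± 6.00 and 57.4 ± 3.15 CPM (SD, n = 4 each). Lcp2 (SLP-76), the counterpart of Blnk, had 71.5 ± 12.9 and 81.1 ± 3.08 CPM (SD, n = 4 each). The 12 myeloid ITAM receptors and adaptors had a median log2 fold change of 0.07. Among them Tyrobp had 295 ± 91.7 and 296 ± 13.6 CPM (SD, n = 4 each), and Clec4e, a receptor that signals through Fcer1g, was higher at an unadjusted p of 0.0495 with a log2 fold change of 0.36 (SE 0.16) and its highest value in mouse 5.

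**Figure D4:**
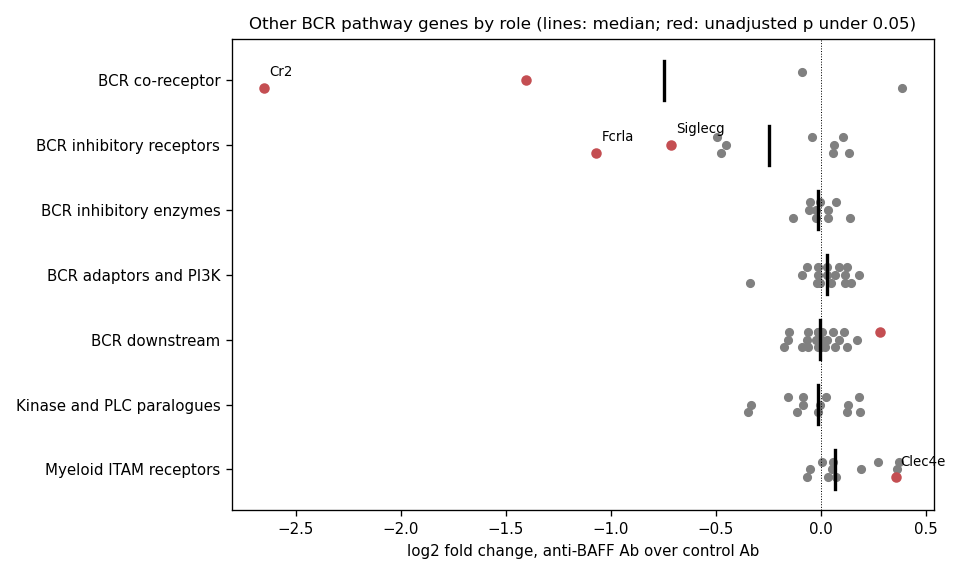
Log2 fold change of anti-BAFF Ab over control Ab for the 90 tested pathway genes, a point per gene in 7 lists by role, with a line at each list's median and red points at an unadjusted p under 0.05, labelled where the text gives the gene. The co-receptor and inhibitory receptor lists spread to the left through Cr2, Fcrla and Siglecg, and the lists of enzymes, adaptors and downstream genes stay around 0.

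The genes whose pattern over the 8 mice was most like that of Cd79a were B cell genes. Likeness was the root mean square difference of log2 CPM after each gene was centred on its own mean, so it uses the treatment difference itself. The closest was Pou2af1, the coactivator of octamer promoters, at 0.223, followed by the IgM Fc receptor Fcmr at 0.379, the B lineage factor Pax5 at 0.381 and Ms4a1 (CD20) at 0.398. For Btk the closest were the glycolytic enzymes Pgk1 at 0.0476 and Pkm at 0.0485, then Arhgap30 at 0.0533, Apobec1 at 0.0564 and the myeloid receptor Pirb at 0.0568.

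Of the 11 lists of cell type markers, the B cell list had the lowest median. Of its 11 genes, 10 were tested, and their median log2 fold change was -1.32. At an unadjusted p of 0.05, 7 were lower (1.24% of all genes). In 5 the treated mice were all below the controls (0.952% of all genes). Cd37 and Pou2f2, which other leukocytes also make, had log2 fold changes of -0.01 and 0.09. Of 6 plasma cell genes, 1 was called lower by edgeR (Jchain, log2 fold change -2.77, adjusted p = 0.0448), against 0.0564% of all genes. The median of the 6 was -0.39. The 6 T cell genes and the 7 dendritic cell genes had medians of -0.25 and -0.12 with 0 genes at an unadjusted p under 0.05 in either list. The 5 platelet and the 10 epididymis genes also had 0, with 3 and 5 genes tested, and 2 of the epididymis genes were at 0 in every library. The fat progenitor and endothelial lists had 0 as well, with medians of 0.06 and 0.05. These counts of 0 lie near the shares of all genes (1.24% lower, 0.664% higher) and are no result about these lists. The 8 neutrophil genes, 5 of them tested, had 1 higher at an unadjusted p of 0.05 (S100a9), against 0.664% of all genes. Of the 8, 6 were highest in mouse 5, the treated mouse with the highest Cd79b, Cd22 and Ighd. The part of the neutrophil content in those values was not tested. Without control mouse 1 and anti-BAFF mouse 5, an alternative chosen after seeing the data, the median of the B cell-restricted genes was -0.97 and that of the shared genes 0.12. Leaving out both mice with epididymis genes gave medians of -0.48 and 0.01.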

How the data were processed

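Bulk RNA sequencing of the gonadal WAT SVF of 8 mice was analysed. Paired-end reads were obtained on a NovaSeq by a service laboratory, and the authors deposited unnormalized counts for each gene with its coordinates and length. The submitters' processing notes name the genome build mm10, while the aligner, the counter and the annotation release are not given in the sources used here. FPKM and an adjusted p are named in the methods, without a test.

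Differences were tested on these deposited counts in R 4.3.3 with edgeR 4.0.16 (minimum count of 10 in filterByExpr, TMM, quasi-likelihood test by glmQLFit, robust option off, treatment as the only term), adjusted by Benjamini-Hochberg over 15963 genes. SEs came from the F statistic. Totals per mouse were 13562340 to 18548024. Replicates of a group differed by a chi-square of at least 7.32 per degree of freedom, so no library was a repeat. Tested on 3 simulations with 200 of the genes changed (absolute log2 fold change 2), the pipeline recovered a median of 90% with 4.76% false calls. Only 9 genes were called in the data themselves, so this recovery does not give the power reached there. DESeq2 1.42.0 and limma 3.58.1 on log2(FPKM + 1) and log2(FPKM + 0.1) were alternatives, beside other scalings, filters and left-out mice. FPKM was computed from the CPM and the gene lengths.

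The members and lists were chosen with earlier results of these data known. Named were all 9 members, up to 6 genes of each pathway list with the smallest p and up to 4 with the highest CPM, the paralogues, and the 5 genes most like Cd79a and Btk. Some genes that these rules would name are not reported here. Promoters came from RefSeq's GRCm38.p6. P-values compare the difference between the groups with the spread between mice within a group.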

Additional observations from a re-analysis of the deposited data

Results flagged for a closer look

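For 3 of the 18 groups of 4 mice examined (9 genes in each treatment), 1 mouse stood far from the other 3. The gap to the nearest mouse exceeded Dixon's 95% critical value for the share of the group's range, and chance alone gives this in about 1 in 20 groups (0.9 of 18). Cd22 was 20.7 CPM in anti-BAFF mouse 5, above the other treated mice. Blnk was 128 CPM in control mouse 1 and Btk was 48.9 CPM in the same mouse. The macrophage markers of control mouse 1 summed to 12993 CPM and the neutrophil markers of anti-BAFF mouse 5 to 168 CPM, the highest of the 8 mice in each case, and their part in these values was not tested. Lyz2 alone gave 7686 of the 12993 CPM, and the rank of mouse 1 in that sum rested on it.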

How the results depend on the processing

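The log2 fold changes of the 9 genes were recomputed in 180 combinations of gene and alternative. In 162 the sign and the side of the adjusted threshold were as reported, in 2 the threshold was passed, and in 16 the sign turned, each time for Btk, Syk, Lyn or Plcg2. Cd79a passed with DESeq2's Wald test (-1.77, adjusted p = 3.09e-05) and with edgeR's likelihood ratio test (-1.77, adjusted p = 0.00032), which set the number of B cell-restricted genes called lower at 1 and 1 instead of 0. Lyn was -0.001755 with RLE size factors, -0.01798 with the upper quartile, -0.006894 with library size only, -0.0002051 with DESeq2, -0.01064 with no filter and -0.008022 with at least 10 counts in every mouse. Plcg2 was 0.0486 without control mouse 1 and anti-BAFF mouse 5, an alternative chosen after seeing the data. Leaving out each mouse in turn gave -0.17 to 0.11 for Plcg2, -0.0106 to 0.341 for Btk, -0.0340 to 0.185 for Syk, -0.0581 to 0.104 for Lyn and -2.06 to -1.57 for Cd79a. The 9 genes called over the whole table became 70 with DESeq2, 50 with the likelihood ratio test, 2 with the robust option, 19 with no filter, 3 without both mice with epididymis genes and 2 without control mouse 1 and anti-BAFF mouse 5. They were 2 to 9 with each mouse left out, at 9 without control mouse 2, 5 without control mouse 9 and 2 without any one of the others. The cause was not tested. No paired analysis was possible because the groups share no mouse number. A value under 3 counts (at most 0.219 CPM) was read as not detectable.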

Other observations

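Mast cell genes, which belong to no B cell comparison, lay above the controls at the group level. Of 6 mast cell genes, 3 were higher at an unadjusted p of 0.05 (0.664% of all genes) and the median log2 fold change was 0.47. Kit, the stem cell factor receptor, had 59.6 ± 8.35 CPM with control Ab (SD, n = 4) and 77.9 ± 5.21 CPM with anti-BAFF Ab (SD, n = 4). Its treated mice were all above the controls, as for 0.526% of all genes. The mast cell proteases Cpa3 and Mcpt4 had log2 fold changes of 0.55 and 0.50 (SEs 0.21 and 0.22). None passed the adjusted threshold of edgeR or of DESeq2, and all 6 were highest in anti-BAFF mouse 7.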
